A study of Mus musculus with 15 samples.

Results

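Axon guidance ligands and receptors were followed in mouse pancreatic islet cells as a set of 71 genes among the 19938 genes with a named cluster of probes on the array. A gene entered the set when its symbol began with Epha, Ephb, Efna, Efnb, Sema, Plxn, Ntn or Unc5, or was Nrp1, Nrp2, Robo1, Robo2, Robo3, Slit1, Slit2, Slit3, Dcc or Neo1. Where several clusters named a gene, the brightest of them by its 15-array mean stood for it. The set held 13 Eph receptors, 8 ephrins, 20 semaphorins, 11 plexins and neuropilins, 13 netrins and their receptors, and 6 slits and Robo receptors. The symbol rule also took in Unc50, which encodes a Golgi membrane protein, and Unc5cl, which encodes a cytoplasmic relative of the Unc5 receptors, and neither is a known netrin receptor.

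Affymetrix Mouse Gene ST arrays were used, 5 titled beta cell, 5 titled alpha cell and 5 titled Pdx1-deficient cell, and the series title asks whether the transcription factor Pdx1 holds an alpha-cell program down in beta cells. All mice were of a mixed B6 and BALB/C background. The genotype label of the beta samples was glucagon-Cre; RosaYFP and that of the alpha samples was RIP-CreER; Pdx1fl/+, RosaYFP. Taken as written, the labels place 1 floxed Pdx1 allele in the mice of the alpha group. These drivers stand in the labels opposite to the cells in which they are usually active. Which control group carried the floxed allele is therefore not settled by the labels. Control cells were sorted by their YFP reporter from mice aged 2 months. The third group was labelled Pdx1-deficient (PKO), described as reprogrammed cells and taken 5 days after tamoxifen, with its Cre driver and the age of its mice not given in the sources used here. The labels do not say whether the 5 samples of a group were separate animals, and if they were not, each p-value reflects technical spread alone.

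Guidance cues steer growing axons by drawing them in or pushing them away. Ephrins are membrane-bound ligands of the Eph receptor tyrosine kinases, and both partners signal into their own cell on contact. Semaphorins signal through plexins, with neuropilins as co-receptors for the secreted class, netrins signal through Dcc, neogenin and the Unc5 family, and slits signal through Robo receptors. In islets, EphA receptors and ephrin-A ligands pass contact signals between beta cells that bear on insulin release, and Robo receptors are needed for the normal arrangement of alpha and beta cells.

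Several arrays stood apart from their titles or groups. Each array's value is a log2 signal, and array medians ran from 5.88 to 6.05. A list of 7 measured beta-cell markers had a mean log2 signal of 9.61 to 9.94 in beta arrays, 8.14 to 8.79 in alpha arrays and 8.06 to 8.69 in Pdx1-deficient replicates 2 to 5. The array labelled Pdx1-deficient replicate 1 read 9.80 on that list, inside the beta range, and its Pdx1 signal of 9.12 also lay inside the beta range. A list of 6 measured alpha-cell markers read 8.42 to 8.52 in beta arrays and 9.12 to 9.31 in alpha replicates 1, 3, 4 and 5. On the same list the Pdx1-deficient arrays read 8.42 to 8.74. The array labelled alpha replicate 2 read 8.54, close to the beta arrays and inside the Pdx1-deficient range. Its beta-cell list, at 8.66, was as low as in the other alpha arrays and inside the range of Pdx1-deficient replicates 2 to 5. On both lists alpha replicate 2 thus lay among the Pdx1-deficient arrays. Alpha replicate 5 stood apart on acinar markers, with a mean of 11.1 where the other arrays had 5.92 to 7.14. Because alpha replicate 2 and Pdx1-deficient replicate 1 went against their titles, results that rest on them are given with and without them.

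**Figure D1:**
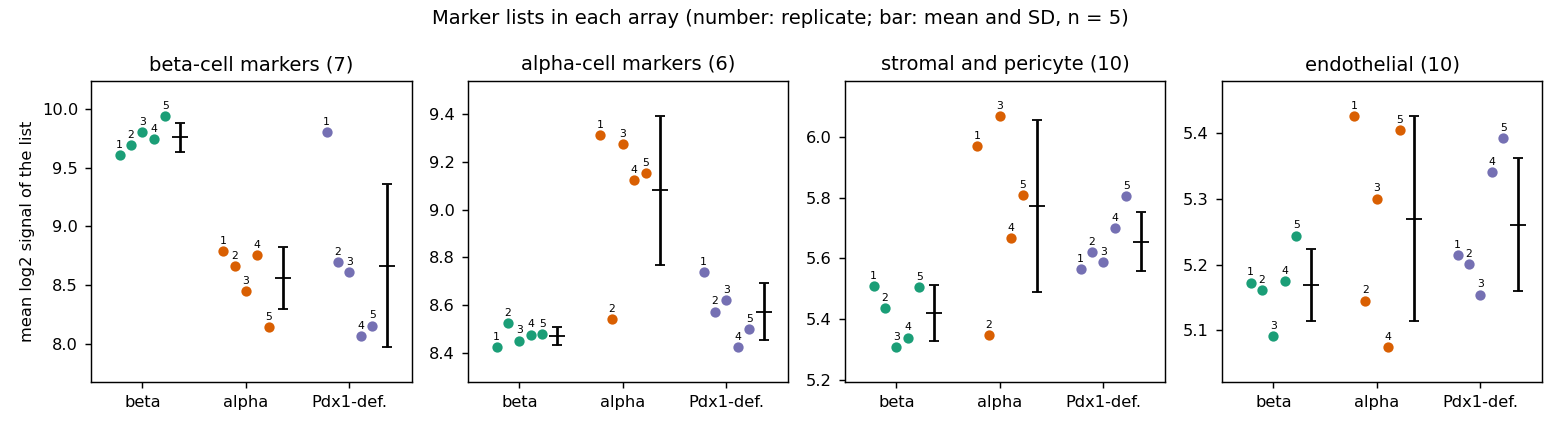
Mean log2 signal of 4 marker lists in each of the 15 arrays, with the replicate number beside each point and bars for the mean and SD of 5 arrays per group. Alpha replicate 2 sits at 8.54 on the alpha-cell list, below the other 4 alpha arrays, and Pdx1-deficient replicate 1 sits at 9.80 on the beta-cell list, among the beta arrays.

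Few guidance genes passed the test in any comparison. With all 15 arrays, Sema6a was the 1 member called between alpha and beta arrays at an adjusted p under 0.05 (limma, Benjamini-Hochberg over 19938 genes), where 4.04% of all genes were called, and it rose in alpha arrays, where 0.893% of all genes rose. At an unadjusted p under 0.05 there were 14 members, where 20.7% of all genes reached it, with 11 higher (8.75% of all genes) and 3 lower (12% of all genes). Between Pdx1-deficient and beta arrays 0 of 71 members were called, where 1.09% of all genes were. At an unadjusted p under 0.05 the limma fit gave 16 members, where 21.8% of all genes reached it, with 14 higher (11% of all genes) and 2 lower (10.8% of all genes). Between Pdx1-deficient and alpha arrays 0 members were called, where 0% of all genes were. At an unadjusted p under 0.05 the limma fit gave 4 members, where 6% of all genes reached it. Robo1 and Efna3 were higher in Pdx1-deficient arrays (3.1% of all genes), and Nrp1 and Sema6a were lower (2.9% of all genes).

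Leaving out alpha replicate 2 changed which members were called. Between the 4 remaining alpha arrays and the 5 beta arrays, 7 of 71 members passed the test, where 7.17% of all genes did. Efnb1, Efnb2, Nrp1 and Sema6a rose, where 2.06% of all genes rose, and Plxnb2, Robo1 and Unc50 fell, where 5.11% of all genes fell. The share of members called, 9.86%, was near the share of all genes. The same 7 members were called when Pdx1-deficient replicate 1 was left out as well, where 7.15% of all genes were called. Robo1 was also called between Pdx1-deficient and alpha arrays without alpha replicate 2, as the 1 member among 145 genes, where 0.727% of all genes were called and 0.361% were higher. With Pdx1-deficient replicate 1 left out too it was again the 1 member, where 0.888% of all genes were called. No further array was left out of these smaller fits, and the comparisons with beta cells share the 5 beta arrays.

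**Figure D2:**
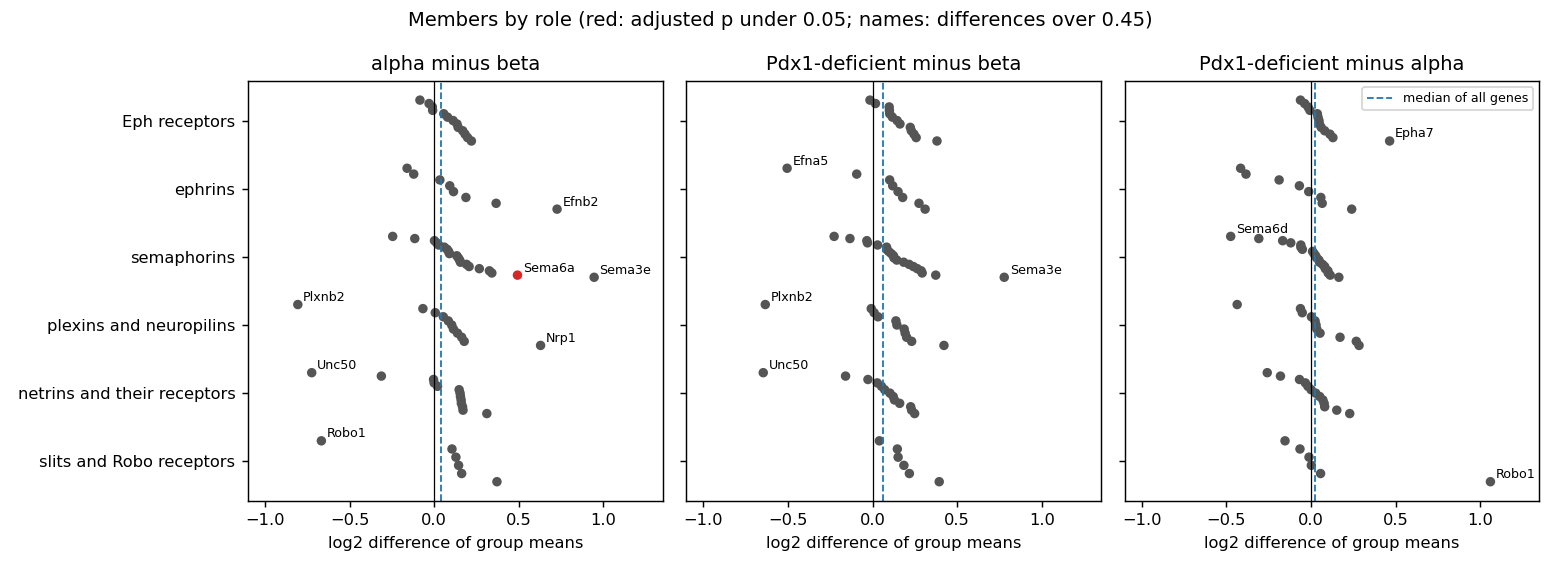
Difference of group means in log2 signal for each of the 71 members, by role, in the 3 comparisons with all 15 arrays; the dashed line is the median of all 19938 genes and red marks an adjusted p under 0.05. Sema6a, 0.49 higher in alpha than in beta arrays, is the 1 red point, and Robo1 stands at 1.06 between Pdx1-deficient and alpha arrays.

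Robo1, a receptor for slit ligands, showed the lowest signals in alpha arrays. Its log2 signals were 7.91, 7.79, 7.88, 8.24 and 7.79 in beta replicates 1 to 5, and 7.12, 8.19, 6.67, 7.42 and 6.87 in alpha replicates 1 to 5. In Pdx1-deficient replicates 1 to 5 they were 8.32, 8.13, 8.26, 8.26 and 8.62. Alpha replicates 1, 3, 4 and 5 lay below every beta and every Pdx1-deficient array, and alpha replicate 2 lay among the beta and Pdx1-deficient arrays. The means were 7.92 ± 0.19 in beta, 7.26 ± 0.59 in alpha and 8.32 ± 0.18 in Pdx1-deficient arrays (SD, n = 5 each). With all arrays the alpha minus beta difference was -0.67 (SE 0.22, limma adjusted p = 0.101), and the Pdx1-deficient minus alpha difference was 1.06 (SE 0.22, limma adjusted p = 0.264).

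Without alpha replicate 2 the alpha mean of Robo1 was 7.02 ± 0.32 (SD, n = 4). Robo1 then fell in alpha against beta arrays, with a difference of -0.90 in log2 signal, a 1.87-fold difference if the log base is 2 (SE 0.15, limma adjusted p = 0.00282). It stood 1.29 higher in Pdx1-deficient than in alpha arrays, a 2.45-fold difference (SE 0.15, limma adjusted p = 0.000702). With Pdx1-deficient replicate 1 left out too, the limma adjusted p-values were 0.00397 and 0.00164. In each of these comparisons 2 of 23 alternatives called Robo1, both of them without alpha replicate 2. The highest limma adjusted p in alpha against beta arrays was 0.229, without alpha replicate 3. In Pdx1-deficient against alpha arrays it was 0.666, with only the 2 groups in the fit. Alpha replicate 2 lay among the Pdx1-deficient arrays on both marker lists. Leaving it out took the genes called between Pdx1-deficient and alpha arrays from 0 to 145. The array whose Robo1 went against its group was thus the array whose alpha-cell markers did. Between Pdx1-deficient and beta arrays the difference was 0.39 (SE 0.22, limma adjusted p = 0.292), and it did not pass the test. Because these are bulk samples, a smaller share of a cell type and less RNA per cell cannot be told apart, for Robo1 and for the genes that follow.

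The sequence before the start of Robo1 is shown with that of Efnb2, a gene that moved the opposite way between alpha and beta arrays without alpha replicate 2. Each window holds the 250 bases before the RefSeq transcript start in GRCm38.p6, written 5′ to 3′ on the gene's strand, at chr16:72662899-72663148 on the plus strand for Robo1 and chr8:8661243-8661492 on the minus strand for Efnb2. Capitals mark TAAT or its reverse complement ATTA, the core letters that homeodomain factors such as Pdx1 bind, searched on both strands.
Robo1: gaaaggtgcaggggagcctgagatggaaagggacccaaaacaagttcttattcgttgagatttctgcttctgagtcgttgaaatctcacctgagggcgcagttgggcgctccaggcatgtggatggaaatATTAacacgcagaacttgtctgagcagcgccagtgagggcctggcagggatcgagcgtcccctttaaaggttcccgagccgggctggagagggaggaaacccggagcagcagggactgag
Efnb2: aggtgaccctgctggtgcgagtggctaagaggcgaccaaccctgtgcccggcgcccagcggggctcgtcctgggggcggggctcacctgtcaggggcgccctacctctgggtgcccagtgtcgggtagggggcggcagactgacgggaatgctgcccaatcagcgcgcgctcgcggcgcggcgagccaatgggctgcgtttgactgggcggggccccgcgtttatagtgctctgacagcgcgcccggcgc
The Robo1 window held 1 match, with its first base at position -120 from the start, and the Efnb2 window held none of these letters. In the same comparison both windows of Plxnb2, which fell, and the windows of Nrp1 and Efnb1, which rose, held 0 matches. That of Unc50, which fell, held 1, and Sema6a, which rose, had no matched window. Over the members, 61 of 71 matched a RefSeq window, and 37.7% of their 77 windows held TAAT or ATTA, where 54.9% of all 32851 windows did. The longer palindrome TAATTA, which contains both cores overlapping, was in 3.9% of the member windows and 4.84% of all windows. A match describes letters and not a bound site.

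The other Robo receptor with a bright cluster, Robo2, did not separate the groups. Its log2 signals were 8.85, 9.37, 9.37, 9.91 and 8.49 in beta replicates 1 to 5, 9.28, 9.16, 9.60, 10.06 and 9.74 in alpha replicates, and 9.44, 9.83, 9.44, 9.57 and 8.79 in Pdx1-deficient replicates. All 3 groups overlapped. Its alpha minus beta difference was 0.37 (SE 0.25, limma adjusted p = 0.419), with the opposite sign to Robo1. Robo3 and the slit ligands Slit1, Slit2 and Slit3 lay within 0.20 of 0 in all 3 comparisons with all arrays.

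Among the ephrins, the B-class ligands Efnb2 and Efnb1 had the largest alpha minus beta differences. Efnb2, the transmembrane ligand of EphB4 that also marks arterial endothelium, read 6.30, 5.96, 6.04, 6.12 and 5.62 in beta replicates 1 to 5. It read 6.32, 6.06, 7.16, 6.97 and 7.16 in alpha replicates and 6.50, 6.23, 6.25, 6.29 and 6.33 in Pdx1-deficient replicates. Alpha replicates 3, 4 and 5 were above every other array, alpha replicate 1 was just above the beta arrays, and alpha replicate 2 lay among them. With all arrays the alpha minus beta difference was 0.73 (SE 0.20, limma adjusted p = 0.0511). Without alpha replicate 2 Efnb2 rose by 0.89 in alpha arrays, 1.86-fold (SE 0.17, limma adjusted p = 0.00556). Leaving out alpha replicate 1 alone gave a limma adjusted p of 0.0474, and leaving out alpha replicate 3 alone gave 0.129. Of 23 alternatives 5 called Efnb2 in this comparison.

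Efnb1, a ligand of EphB receptors, read 6.66, 6.70, 6.58, 6.51 and 6.74 in beta replicates 1 to 5. The alpha replicates read 7.37, 6.54, 7.13, 7.06 and 6.91, and the Pdx1-deficient replicates 6.40, 6.76, 6.98, 6.99 and 6.94. Alpha replicate 2 was again the array inside the beta range, and in the Pdx1-deficient group replicate 1 was the lowest of all 15 arrays. The alpha minus beta difference of 0.37 (SE 0.14, limma adjusted p = 0.165) did not pass with all arrays. Without alpha replicate 2 it was 0.48 (SE 0.13, limma adjusted p = 0.0347). The Pdx1-deficient minus beta difference of Efnb1 was 0.18 (SE 0.14, limma adjusted p = 0.453). Without Pdx1-deficient replicate 1 it was 0.28 and the groups did not overlap (SE 0.13, limma adjusted p = 0.223), and with alpha replicate 2 left out too the adjusted p was 0.125.

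The A-class ephrins, which are tethered to the membrane by a lipid anchor, showed no called difference. Efna5 varied within every group, with signals of 7.23, 8.01, 7.10, 7.38 and 6.78 in beta replicates 1 to 5, 6.55, 7.51, 6.88, 8.23 and 6.73 in alpha replicates, and 6.63, 6.97, 7.10, 6.97 and 6.31 in Pdx1-deficient replicates. The 3 groups overlapped, and the Pdx1-deficient minus beta difference was -0.51 (SE 0.30, limma adjusted p = 0.313). Efna1, Efna2, Efna3, Efna4 and Efnb3 differed by 0.27 or less in every comparison.

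Of the Eph receptors 0 of 13 were called in any comparison. With all arrays their differences ran from -0.02 to 0.38 in Pdx1-deficient minus beta, from -0.08 to 0.22 in alpha minus beta and from -0.06 to 0.46 in Pdx1-deficient minus alpha arrays. Epha7 gave the upper end of both Pdx1-deficient ranges and the lower end of the alpha minus beta range. It read 5.93, 7.19, 6.996, 6.53 and 6.02 in beta replicates 1 to 5, 6.08, 7.64, 6.31, 5.998 and 6.21 in alpha replicates, and 5.61, 7.73, 7.75, 6.70 and 6.77 in Pdx1-deficient replicates. The arrays labelled alpha replicate 2 and Pdx1-deficient replicate 1 were the highest and the lowest of their groups, and with all arrays the spread within each group was larger than the difference between group means. The Pdx1-deficient minus beta difference of Epha7 was 0.38 (SE 0.41, limma adjusted p = 0.578), and the Pdx1-deficient minus alpha difference was 0.46 (SE 0.41, limma adjusted p = 0.971). Without these 2 arrays the Pdx1-deficient minus alpha difference of Epha7 was 1.09, 2.13-fold, with no overlap, and it did not pass the test (SE 0.31, limma adjusted p = 0.174).

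Epha10, whose kinase domain is thought to be inactive, read 6.35, 5.98, 6.39, 6.15 and 6.40 in beta replicates 1 to 5, 6.56, 6.18, 6.60, 6.27 and 6.57 in alpha replicates, and 6.38, 6.46, 6.21, 6.43 and 6.51 in Pdx1-deficient replicates, with all groups overlapping. Ephb4, the receptor for ephrin-B2, read 4.92, 4.90, 4.88, 4.76 and 4.85 in beta replicates and 5.01, 5.09, 4.96, 5.29 and 5.16 in Pdx1-deficient replicates. These 2 groups did not overlap, yet the difference of 0.24 had a limma adjusted p of 0.147 (SE 0.09). Its alpha replicates read 5.30, 4.86, 5.01, 4.99 and 5.12. Epha2 read 4.96, 4.80, 5.02, 4.60 and 5.08 in beta replicates 1 to 5. It read 5.19, 4.98, 5.15, 5.13 and 5.10 in alpha replicates and 5.07, 5.07, 5.24, 5.08 and 5.30 in Pdx1-deficient replicates. Epha2 differed by 0.26 (SE 0.09, limma adjusted p = 0.149) in Pdx1-deficient minus beta arrays, with overlapping groups. Epha1 differed by 0.12 (SE 0.08, limma adjusted p = 0.357) with no overlap, and that sign turned when the values were quantile normalized again.

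Sema6a, a transmembrane semaphorin that binds the plexins A2 and A4, was the member called with all arrays. It read 5.39, 5.44, 5.49, 5.19 and 5.32 in beta replicates 1 to 5, and 5.98, 5.62, 5.999, 6.16 and 5.53 in alpha replicates. Every alpha array was above every beta array, and the Pdx1-deficient replicates, at 5.61, 5.44, 5.47, 5.51 and 5.71, overlapped both groups. The means were 5.37 ± 0.11 in beta, 5.86 ± 0.27 in alpha and 5.55 ± 0.11 in Pdx1-deficient arrays (SD, n = 5 each). Sema6a rose by 0.49 in alpha against beta arrays, 1.41-fold (SE 0.11, limma adjusted p = 0.0293). The call was lost under several alternatives, among them the replicate block, with a limma adjusted p of 0.0574. The limma adjusted p was 0.0757 with quantile normalization, 0.0590 with only the 2 groups in the fit, 0.0596 without beta replicate 1, 0.0713 without beta replicate 4, 0.0627 without beta replicate 5, 0.0686 without alpha replicate 1, 0.0801 without alpha replicate 3 and 0.0679 without alpha replicate 4. It was 0.0120 without alpha replicate 2 and 0.0181 without alpha replicate 5, the array with high acinar markers.

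Sema3e, a secreted semaphorin that binds plexin D1, had the widest mean difference among the semaphorins together with a wide spread. It read 6.05, 5.59, 7.02, 5.81 and 5.75 in beta replicates 1 to 5, 7.23, 7.21, 6.73, 6.58 and 7.20 in alpha replicates, and 6.04, 8.11, 7.15, 6.47 and 6.35 in Pdx1-deficient replicates. Beta replicate 3 lay inside the alpha range, and Pdx1-deficient replicate 2 was above all other arrays. The alpha minus beta difference was 0.95 (SE 0.35, limma adjusted p = 0.141) and the Pdx1-deficient minus beta difference 0.78 (SE 0.35, limma adjusted p = 0.212), so neither passed.

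Sema3b and Sema3f, secreted semaphorins that act through neuropilins, were slightly higher in every Pdx1-deficient array than in any beta array. Sema3b read 5.80, 5.68, 5.81, 5.67 and 5.79 in beta replicates 1 to 5, 5.96, 5.83, 5.98, 5.91 and 6.02 in alpha replicates, and 5.97, 6.003, 5.92, 6.17 and 6.15 in Pdx1-deficient replicates. Neither group overlapped the beta arrays. The Pdx1-deficient minus beta difference was 0.29 (SE 0.07, limma adjusted p = 0.0617). It passed at 0.0497 without Pdx1-deficient replicate 3, and at 0.0494 without Pdx1-deficient replicate 1 and alpha replicate 2 together, where 3.14% of all genes passed and Sema3b was the 1 member. Its alpha minus beta difference was 0.19 (SE 0.07, limma adjusted p = 0.153).

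Sema3f read 6.61, 6.62, 6.56, 6.47 and 6.66 in beta replicates 1 to 5, 6.91, 6.71, 6.78, 6.60 and 6.94 in alpha replicates, and 6.69, 6.81, 6.72, 7.01 and 7.12 in Pdx1-deficient replicates. Sema7a, a lipid-anchored semaphorin whose plexin is plexin C1, read 5.36, 5.32, 5.19, 5.40 and 5.28 in beta replicates and 5.61, 5.43, 5.48, 5.58 and 5.77 in Pdx1-deficient replicates. Its alpha replicates read 5.59, 5.37, 5.55, 5.27 and 5.52. In both genes the Pdx1-deficient and beta arrays did not overlap and the difference did not pass, at 0.29 (SE 0.10, limma adjusted p = 0.125) for Sema3f and 0.26 (SE 0.09, limma adjusted p = 0.118) for Sema7a. Sema4f, a transmembrane semaphorin, differed by 0.37 (SE 0.14, limma adjusted p = 0.151) in the same comparison, again with no overlap. Its alpha minus beta difference of 0.33 passed only without Pdx1-deficient replicate 5, with a limma adjusted p of 0.0487. That array leaves the difference unchanged and enters only through the shared spread and the adjustment.

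Sema6d, a transmembrane semaphorin whose partner is plexin A1, read 7.45, 8.16, 7.93, 8.03 and 6.48 in beta replicates 1 to 5. It read 8.09, 7.89, 7.90, 8.03 and 7.83 in alpha replicates and 7.24, 7.77, 7.88, 7.82 and 6.66 in Pdx1-deficient replicates. Replicate 5 was the lowest array of each group, and the groups overlapped. Sema4d is a case where the choice of cluster mattered, since the cluster used had means of 6.50 in beta and 6.76 in alpha arrays while its other cluster had 6.65 and 6.31. The other 12 semaphorins differed by 0.25 or less in every comparison.

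Plxnb2, a receptor for class 4 semaphorins, was the plexin with the largest difference. It read 8.71, 8.01, 8.32, 8.41 and 9.15 in beta replicates 1 to 5, 7.82, 8.00, 7.49, 7.72 and 7.55 in alpha replicates, and 8.33, 8.01, 8.23, 7.07 and 7.81 in Pdx1-deficient replicates. Every alpha array was below every beta array, though beta replicate 2 and alpha replicate 2 lay close together, and the Pdx1-deficient arrays overlapped both groups. The alpha minus beta difference was -0.81 (SE 0.23, limma adjusted p = 0.0646). Plxnb2 passed the test without beta replicate 2 (limma adjusted p = 0.0457) and without alpha replicate 2 (adjusted p = 0.0478). It also passed without Pdx1-deficient replicate 4 (adjusted p = 0.0274), where the difference stayed at -0.81 and only the shared spread and the adjustment changed. Of 23 alternatives 7 called Plxnb2 in this comparison, and without alpha replicate 3 its limma adjusted p was 0.144. The Pdx1-deficient minus beta difference was -0.63 (SE 0.23, limma adjusted p = 0.149).

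Nrp1, co-receptor for secreted semaphorins and for vascular endothelial growth factor, read 4.71, 4.79, 4.98, 5.02 and 4.82 in beta replicates 1 to 5. It read 5.78, 4.88, 5.30, 5.42 and 6.09 in alpha replicates and 4.97, 4.83, 4.99, 5.34 and 5.16 in Pdx1-deficient replicates. Alpha replicates 1, 3, 4 and 5 were above every beta array and alpha replicate 2 was among them. The alpha minus beta difference was 0.63 (SE 0.18, limma adjusted p = 0.0601) with all arrays. Without alpha replicate 2 Nrp1 rose by 0.78, 1.72-fold (SE 0.15, limma adjusted p = 0.00683).

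Plxna2, a receptor for class 6 semaphorins and a partner of neuropilins, read 7.22, 7.56, 7.63, 7.44 and 7.28 in beta replicates 1 to 5, 7.78, 7.75, 7.04, 7.63 and 7.63 in alpha replicates, and 7.25, 8.14, 8.10, 7.63 and 8.13 in Pdx1-deficient replicates. Pdx1-deficient replicates 2, 3 and 5 were above all control arrays, and replicate 1 lay among the beta arrays. The Pdx1-deficient minus beta difference was 0.42 (SE 0.18, limma adjusted p = 0.197). It was 0.57 without Pdx1-deficient replicate 1 (limma adjusted p = 0.0658). The other 8 plexins and neuropilins, among them Nrp2, Plxnd1 and Plxnc1, differed by 0.27 or less in every comparison.

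**Figure D3:**
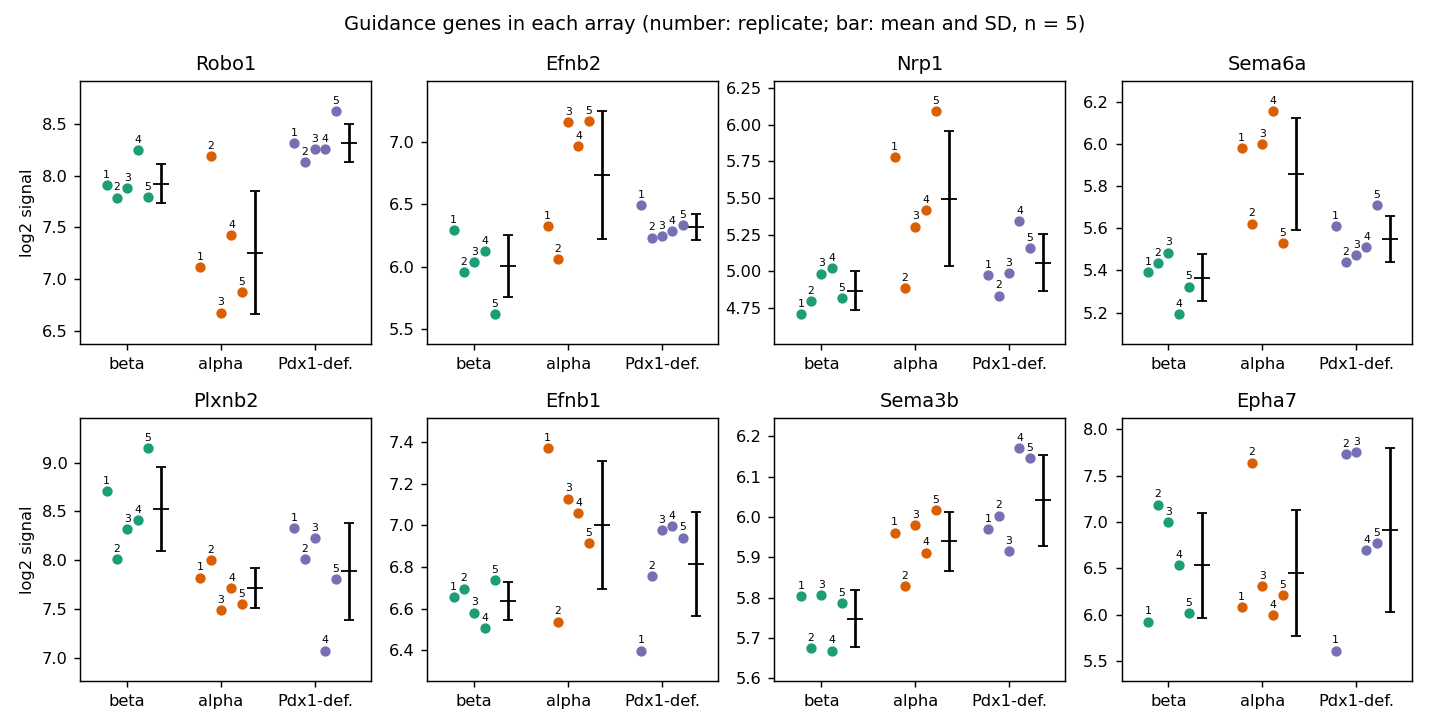
Log2 signal of 8 guidance genes in each of the 15 arrays, with the replicate number beside each point and bars for the mean and SD of 5 arrays per group; each panel has its own axis. In Robo1, Efnb2, Nrp1 and Efnb1 alpha replicate 2 lies among or below the beta arrays, at 8.19, 6.06, 4.88 and 6.54, while the alpha and beta arrays of Sema6a do not overlap.

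Neo1, which encodes neogenin, a receptor for netrins and repulsive guidance molecules, read 9.46, 9.07, 9.45, 9.40 and 9.18 in beta replicates 1 to 5. It read 9.45, 9.44, 9.92, 9.70 and 9.60 in alpha replicates and 9.43, 9.69, 9.46, 9.08 and 9.15 in Pdx1-deficient replicates. The groups overlapped, and the alpha minus beta difference of 0.31 (SE 0.13, limma adjusted p = 0.192) did not pass. The netrins Ntn1, Ntn3 and Ntn4, and Ntng1, which entered by its symbol, differed by 0.23 or less in every comparison. So did the receptors Dcc, Unc5b, Unc5c and Unc5d, and Unc5a differed by -0.31 in alpha minus beta arrays (SE 0.16, limma adjusted p = 0.278). Ntn5 was higher in every Pdx1-deficient than in any beta array, by 0.25 (SE 0.11, limma adjusted p = 0.211).

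Of the symbols that are not netrin receptors, Unc50 read 10.15, 10.07, 10.01, 9.79 and 10.05 in beta replicates 1 to 5. It read 9.24, 9.82, 8.61, 9.47 and 9.32 in alpha replicates and 9.67, 9.55, 9.62, 8.71 and 9.29 in Pdx1-deficient replicates. All Pdx1-deficient arrays were below all beta arrays, and so were all alpha arrays but replicate 2. The alpha minus beta difference was -0.72 (SE 0.21, limma adjusted p = 0.0621) and the Pdx1-deficient minus beta difference -0.65 (SE 0.21, limma adjusted p = 0.114). The alpha minus beta difference of Unc50 passed without alpha replicate 2 (limma adjusted p = 0.0203). It also passed without Pdx1-deficient replicate 4 (adjusted p = 0.0329), where the difference stayed at -0.72 and only the shared spread and the adjustment changed. Of 23 alternatives 5 called Unc50 in this comparison, and without alpha replicate 3 its limma adjusted p was 0.134. Unc5cl differed by 0.23 in Pdx1-deficient minus beta arrays (SE 0.08, limma adjusted p = 0.1501) with no overlap.

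Small upward differences were common to many members. In Pdx1-deficient minus beta arrays 59 of 71 members lay above 0, with a median of 0.14 where that of all genes was 0.06. In alpha minus beta arrays 56 of 71 lay above 0, with a median of 0.13 against 0.04. These values share the beta arrays, and they moved with scaling: after each array's median was subtracted, 47 and 43 members lay above 0, with medians of 0.04 and 0.04 against -0.04 and -0.04 for all genes. Dim clusters ran the same way over the whole array. Among the 4985 genes of lowest mean signal, 85.7% lay above 0 in Pdx1-deficient minus beta arrays and the median was 0.11, whereas the median of the 4985 brightest genes was -0.19. Of the members, 46 lay under the median of gene means, and 14 of these were among the 4985 dim genes. In Pdx1-deficient minus beta arrays the members' medians were 0.15, 0.14, 0.12 and 0.05 from the dimmest to the brightest of 4 bands of mean signal, where all genes had 0.11, 0.13, -0.01 and -0.19. In alpha minus beta arrays they were 0.09, 0.13, 0.12 and 0.14, where all genes had 0.08, 0.09, -0.03 and -0.18. The brightest band held 7 members. With dim clusters removed, the 26 remaining members had medians of 0.11 and 0.11 in these comparisons, where the remaining genes had -0.09 and -0.08. The members' medians thus lay above those of all genes by more in the brighter bands than in the dimmer ones, and this is a description with no test.

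**Figure D4:**
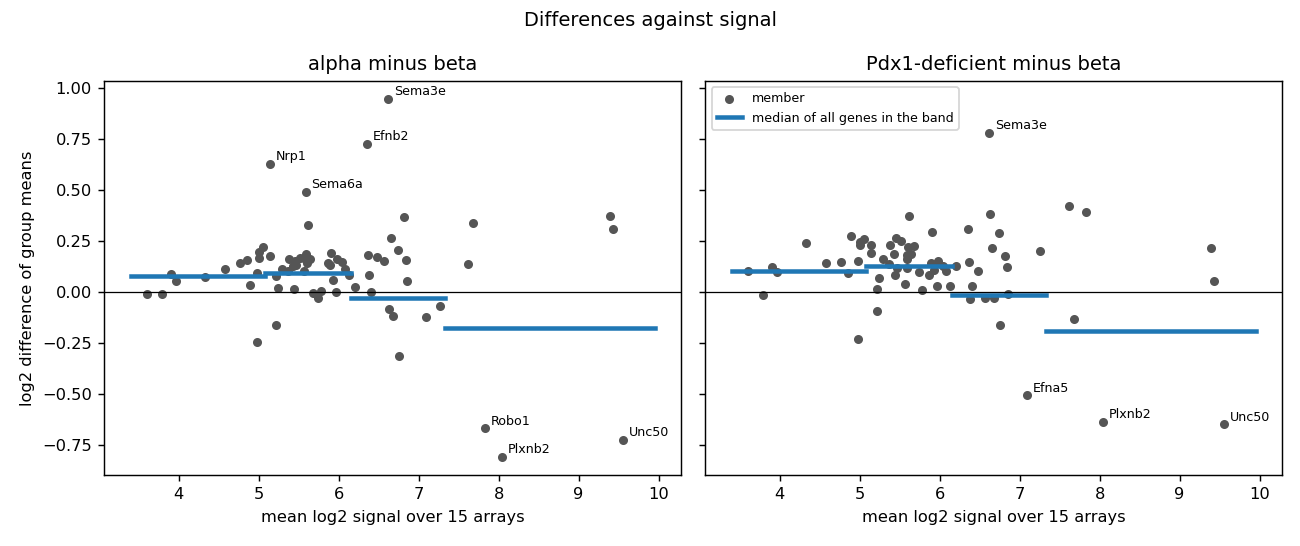
Difference of group means in log2 signal for the 71 members against their mean over 15 arrays, with alpha minus beta on the left and Pdx1-deficient minus beta on the right, both against the same beta arrays. Bars mark the median of all genes in 4 bands of mean signal, which stood at 0.11 in the dimmest and -0.19 in the brightest band in Pdx1-deficient minus beta arrays.

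Arrays that did not overlap were counted in the same way. Pdx1-deficient and beta arrays did not overlap for 9 members, where 5.96% of all genes did not, and 8 of the 9 were higher in Pdx1-deficient arrays, where 2.77% of all genes were: Epha1, Ephb4, Ntn5, Unc5cl, Sema3b, Sema3f, Sema4f and Sema7a. Unc50 was lower, where 3.18% of all genes were. Of the 8 higher members, 7 were under the median of gene means, a range in which 3.89% of all genes were higher without overlap. Alpha and beta arrays did not overlap for 4 members, where 6.34% of all genes did not: Epha1, Sema3b and Sema6a were higher in alpha arrays (2.29% of all genes) and Plxnb2 was lower (4.05% of all genes). The alpha arrays stood above the beta arrays for 11 members without alpha replicate 2, where 6.15% of all genes did: Efnb1, Efnb2, Epha1, Epha2, Ephb4, Nrp1, Sema3b, Sema3g, Sema4f, Sema6a and Slit3. They then stood below the beta arrays for 3 members, Plxnb2, Robo1 and Unc50, where 7.19% of all genes did. Without Pdx1-deficient replicate 1, Efnb1 joined the 8 members higher in Pdx1-deficient than in beta arrays, where 4.56% of all genes were higher, and Unc50 was again the 1 lower member, where 5.28% of all genes were.

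Pdx1-deficient and alpha arrays did not overlap for 0 members with all arrays, where 0.637% of all genes did not. Robo1 was higher in every Pdx1-deficient array without alpha replicate 2, where 1.54% of all genes were. Without both alpha replicate 2 and Pdx1-deficient replicate 1 the higher members were Robo1 and Epha7, where 2.45% of all genes were higher. No member was lower in either of these smaller sets, where 1.46% and 2.06% of all genes were.

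Other genes of the pathway were read from 2 lists. Among 26 other guidance cues and co-receptors, Chl1, an adhesion molecule of the L1 family, rose in alpha against beta arrays by 0.62 (SE 0.16, limma adjusted p = 0.0404), and Ret, the receptor for the GDNF family of ligands, fell by 0.64 (SE 0.17, limma adjusted p = 0.0473), with 24 not called. Among 50 measured effectors inside the cell, Myo10, a myosin of filopodia, fell by 0.71 (SE 0.17, limma adjusted p = 0.0328), with 49 not called. In that comparison 0.893% of all genes rose and 3.15% fell. With all arrays 0 members of either list were called in Pdx1-deficient against beta or alpha arrays. The median alpha minus beta difference was 0.06 for the cues and 0.01 for the effectors, where that of all genes was 0.04.

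Chl1, like Efnb2 and Nrp1, had alpha replicate 2 as its lowest alpha array. Its beta replicates 1 to 5 read 4.53, 4.29, 4.25, 4.38 and 4.38, and its alpha replicates 5.13, 4.33, 4.92, 5.48 and 5.08, so that only alpha replicate 2 lay within the beta range. Without alpha replicate 2, 3 of the 26 cues rose in alpha against beta arrays, where 2.06% of all genes rose: Chl1 by 0.79 (adjusted p = 0.00093), the related Nrcam by 0.67 (adjusted p = 0.00318) and Flrt3 by 0.44 (adjusted p = 0.0324). In the same fit 2 fell, where 5.11% of all genes fell: Cntn1, a contactin, with a difference of -1.82 (adjusted p = 0.0087) and Ret with -0.72 (adjusted p = 0.0208). Of the 50 effectors, Ablim3, an actin-binding LIM protein, rose by 0.36 (adjusted p = 0.0384) and Myo10 fell by 0.81 (adjusted p = 0.0101). Chl1 and Nrcam then also differed between Pdx1-deficient and alpha arrays, at -0.59 (adjusted p = 0.0215) and -0.60 (adjusted p = 0.0247), where 0.366% of all genes were lower. The calls with all arrays were not stable: Chl1 was called in 9 of 22 alternatives, Ret in 8 of 23 and Myo10 in 15 of 23, and several single arrays of either group ended each call on being left out.

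Markers of other cells were read beside these genes because Efnb2 and Nrp1 are also made by endothelial and stromal cells. The summed linear signal of 10 endothelial markers was 377 to 418 in beta, 373 to 471 in alpha and 391 to 465 in Pdx1-deficient arrays, with 0 of 10 called in any comparison and 4 of 10 under the 25th percentile of gene means. Alpha replicates 1 and 5, the arrays with the highest Nrp1, had endothelial sums of 471 and 460, and Pdx1-deficient replicate 5, with a sum of 465, read 5.16 for Nrp1. The summed signal of 10 stromal and pericyte markers was 451 to 546 in beta, 460 to 936 in alpha and 558 to 660 in Pdx1-deficient arrays. In alpha replicates 1, 3, 4 and 5 it was 783, 936, 635 and 705, and in alpha replicate 2 it was 460, within the beta range. Of that list 1 marker, Rgs5, was called in alpha against beta arrays (1.07, limma adjusted p = 0.0365), and 10 of 10 differences lay above 0. Alpha replicate 2 was thus the lowest alpha array on the stromal list, as on Efnb2 and Nrp1. Among the other 4 alpha arrays the orders differed: the stromal sum was highest in replicate 3, where Nrp1 was lowest, and Efnb2 was lowest in replicate 1, with the next highest stromal sum. The part of other cells in those results was not tested.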

How the data were processed

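The authors deposited 1 table of log2 signals for 35556 transcript clusters in 15 arrays. Per the labels, 500 ng of total RNA was amplified and biotin labelled for Mouse Gene ST arrays, and per the submitters' processing notes Affymetrix Expression Console was used. Its version and the steps of background correction and summarization, like the log base and the build, were not given in the sources used here. The log2 scale is read from the range of 2.11 to 13.45, and folds hold only on base 2.

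Groups came from sample titles. Clusters with 1 gene symbol in the platform annotation (21789) were kept, those with several (1621) or none (12146) were not, and each of 19938 genes was represented by its brightest cluster. Names were matched to a RefSeq gene table (GRCm38.p6) for 21698 clusters, and for all 71 members. No member was removed by a filter on dim values.

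Group means were compared with limma 3.58.1 (lmFit, eBayes) in R 4.3.3 over all 15 arrays without a block, with Benjamini-Hochberg adjustment over all genes and a threshold of 0.05. The procedure was tested on simulated data. The number of arrays, 5 per group, limits the precision. Alternatives were other scalings, a filter on dim clusters, other moderation, 2-group fits, a replicate block, cluster means and leaving out arrays. Named were members called or not overlapping in a comparison and the 2 brightest clusters per role, with every array given for the smallest adjusted p-values and these bright clusters. Of the pathway lists, members called with all arrays or without alpha replicate 2 were named. Marker lists of delta and PP, duct, leukocyte and nerve cells were read too: 1 of 6, 1 of 6, 0 of 9 and 0 of 7 measured markers were called in alpha against beta arrays. Of 7 beta-cell markers 5 fell in alpha and 1 in Pdx1-deficient arrays, of 6 alpha-cell markers 2 rose in alpha arrays, and of 6 acinar markers 0 were called. Members and lists were chosen with earlier results of these data known.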

Additional observations from a re-analysis of the deposited data

Results flagged for a closer look

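In 6 of 72 groups of 5 arrays, over 24 named members, 1 array stood apart from the other 4 by Dixon's test at the 95% level, where chance flags about 5% of groups. Robo1 read 8.24 in beta replicate 4, where the other beta arrays had 7.79 to 7.91. Epha7 read 7.64 in the array labelled alpha replicate 2, where the others had 5.998 to 6.31. Plxna2 read 7.04 in alpha replicate 3, where the others had 7.63 to 7.78. Sema4f read 6.36 in Pdx1-deficient replicate 5, where the others had 5.57 to 5.74. Epha1 read 5.70 in Pdx1-deficient replicate 4, where the others had 5.43 to 5.50. Ntn5 read 5.15 in beta replicate 4, where the others had 5.41 to 5.45.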

How the results depend on the processing

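In alpha against beta arrays the count of members called, 1 with all arrays, was 3 with array medians subtracted, 0 with quantile normalization, 3 with dim clusters removed (Sema6a among the removed), 2 with trended, robust moderation and 1 with only the 2 groups in the fit, Plxnb2 in place of Sema6a. It was 7 without alpha replicate 2 and Pdx1-deficient replicate 1 together, and 0 to 7 on leaving out single arrays. In Pdx1-deficient against beta arrays and against alpha arrays the count was 0 throughout except for 1 each without both of these arrays, and 0 to 1 on leaving out single arrays. The Epha1 difference in Pdx1-deficient minus beta arrays reversed to -0.0146 with quantile normalization, and the cause was not tested. For 39 differences 874 alternatives were run. These were differences of members called, not overlapping or at an unadjusted limma p under 0.05, and of pathway genes called with all arrays. Of the 874, 800 kept their direction and side of the threshold, 28 gained a call (15 of them without alpha replicate 2) and 45 lost it, 9 of them Sema6a. Only Sema6a, Chl1, Ret and Myo10 were called with all arrays, so only these could lose a call. They were called in 13 of 22, 9 of 22, 8 of 23 and 15 of 23 alternatives. The count over all genes in Pdx1-deficient against beta arrays, 217, was 615 with medians subtracted, 29 with quantile normalization, 411 without dim clusters, 121 with trended moderation, 89 with 2 groups, 626 without both arrays, and 0 to 548 without single arrays. In alpha against beta arrays 806 became 1425 without both arrays and 328 to 1430 without single arrays. In Pdx1-deficient against alpha arrays 0 became 1 without dim clusters or with trended moderation, 177 without both arrays, and 0 to 145 without single arrays.

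The labels do not say whether the replicate numbers pair samples. Deviations of same-numbered arrays were weakly correlated (-0.172 to 0.224, 5 of 15 over 0.1). Such correlations cannot decide whether samples were paired, because several arrays stood apart from their groups. With the replicate block the alpha against beta count was 0 members, with Sema6a at an adjusted p of 0.0574 (limma), the other counts stayed at 0, and 8 genes in all were called in Pdx1-deficient against beta arrays. For 3 of 15 pairs the same-numbered array correlated best.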
